A study of Mus musculus with 5 samples.

Results

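Plasmacytoid dendritic cells (pDCs) were picked out of single-cell RNA data of mouse bone marrow (BM) by the transcripts of 2 genes. Siglech encodes a sialic acid-binding receptor of pDCs, and Cd79a encodes a chain of the B cell receptor complex. Transcripts were counted as unique molecular identifiers (UMIs), 1 for each captured RNA molecule. A cell was taken when it held at least 3 UMIs of Siglech and at most 1 UMI of Cd79a, with the search limited to cells in which 200 or more genes were found and mitochondrial genes took less than 20% of UMIs. This gave 486 of the 21520 kept cells of whole BM, with 142 of 7104 in naive BM, 207 of 6126 in D2 CTX BM and 137 of 8290 in D7 CTX BM. The cells were thus chosen by their measured Siglech and Cd79a counts, and the levels of both genes are given only as a description.

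The study asked how myeloid cells of the BM change as it recovers from chemotherapy. Young BALB/c mice of the treated groups received the alkylating agent cyclophosphamide (CTX) at 150 mg/kg into the peritoneum, and their BM was taken 2 days later (D2 CTX) or 7 days later (D7 CTX). Naive mice were untreated, so none of the groups had the vehicle alone. The labels give CD45+ as the genotype and mononuclear BM cells as the cell type of all 3 groups, and dead cells had been depleted in each. BM of 3 mice was mixed into 1 library for each condition. No test between conditions was therefore possible, and how far mice of 1 group differ is unknown. The intervals given are exact at 95% and cover counting error only.

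pDCs circulate as rare dendritic cells that sense viral nucleic acids in endosomes through Toll-like receptors and can answer with large amounts of type I interferon. They form in the BM from both myeloid and lymphoid progenitors, and the E protein Tcf4, together with Spib, Irf8, Runx2 and Bcl11a, holds their identity. Part of their program, such as Ly6d, Dntt and immunoglobulin heavy chain transcripts, is shared with lymphocytes.

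Few cells stood near the Siglech limit. Where 3 values follow each other below, they stand for the naive, D2 CTX and D7 CTX libraries in this order. The median pDC held 15, 21 and 13 Siglech UMIs, and the highest held 35, 53 and 38. Only 4, 0 and 7 cells stood exactly at the minimum of 3 UMIs, while 5, 4 and 8 cells with at most 1 Cd79a UMI stood just below it with 2 Siglech UMIs. Another 9, 10 and 8 cells met the Siglech minimum but held at least 2 Cd79a UMIs and were left out. Those cells carried a median of 7 or more of the 9 pDC markers described next. No barcode of a pDC occurred in another library, although pairs of whole BM libraries shared 6, 16 and 13 barcodes.

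The label was checked against 9 pDC markers that the rule did not use. They were Ccr9, a chemokine receptor of gut homing, Bst2, the interferon-inducible antigen tetherin, the kallikrein Klk1, Cox6a2, Ly6d, Pacsin1, the receptor Klra17 and the transcription factors Spib and Tcf4. The median pDC had UMIs of 7 of the 9 in each library, and 96.5%, 94.2% and 81.8% of pDCs had at least 5. Among neutrophils, taken as cells with at least 50 UMIs each of S100a8 and S100a9 and none of Siglech, at least 5 were found in 0.0307%, 0.114% and 0.0148%. The markers thus bore out the label, with a thinner set in D7 CTX BM, where 10 pDCs held fewer than 3 of the 9 against 2 in naive and 1 in D2 CTX BM.

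Levels below are in CPM, the UMIs of a gene in the pDCs of a library divided by all their UMIs and scaled to 1000000. Ccr9 stood at 712.7, 677.9 and 435.3 CPM, and at 2.66, 4.37 and 1.41 CPM in all other kept cells. Bst2 stood at 2775, 2036 and 1648 CPM, and at 33.8, 66.3 and 18.7 CPM in the other cells. Klk1 stood at 898.6, 769.4 and 395.3 CPM, and at no more than 1.18 CPM in the other cells. Each of these genes was many-fold higher in pDCs than elsewhere in every library, and each was lowest in D7 CTX pDCs. Klra17 was the exception among the markers, since neutrophils held 36.4, 98.3 and 22.7 CPM of it against 45.9, 54.6 and 28.1 CPM in pDCs. Of pDCs with 10 or more Siglech UMIs, 92.5%, 88.8% and 87.6% had a Ccr9 UMI, against 0.512%, 1.08% and 0.304% of cells with no Siglech UMI and at most 1 of Cd79a. The median depths of these classes were 6066, 6235 and 6351 UMIs against 4371, 3316 and 7183.

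**Figure D1:**
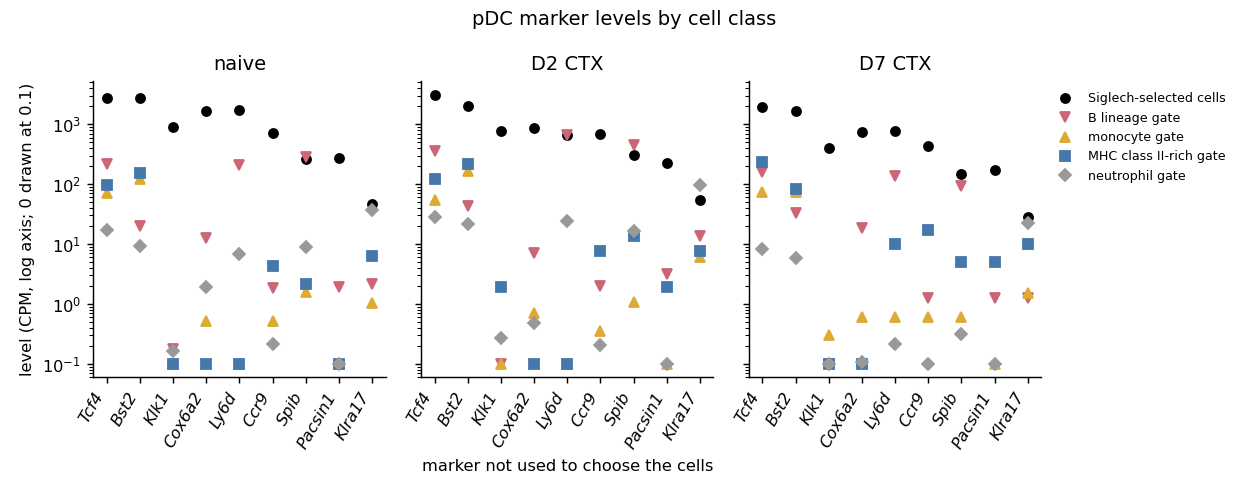
Levels in CPM (log axis, values of 0 drawn at 0.1) of the 9 pDC markers that did not choose the cells, in 5 cell classes of naive, D2 CTX and D7 CTX BM, with 1 point for each class and library. Siglech-selected cells lie above the other classes for most markers, Ly6d and Spib are also high in B lineage cells, and Klra17 is close to the pDC level or above it in neutrophils.

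Tcf4 and related E proteins bind DNA at E-boxes, so the promoters of Siglech and of the other genes that mark the cells were searched for the letters CAGGTG (which read CACCTG on the opposite strand) and for the palindrome CAGCTG, on both strands, from 250 bases before to 50 bases after the start of transcription. A match was present in 9 of the 19 genes, among the 25 leading pDC genes named next, that have a promoter in the RefSeq table (47.4%), and in 35.9% of all 27025 genes with one. Each stretch below holds 60 bases on the strand of the gene in GRCm38.p6, with the matching letters in capitals, and is shown for Siglech, which chose the cells, and for 3 of the markers that did not. They lie at chr7:55768124-55768183 (plus strand) for Siglech, chr9:123767099-123767158 (plus strand) for Ccr9, chr7:44225246-44225305 (plus strand) for Klk1 and chr8:71537645-71537704 (minus strand) for Bst2. The matches began 20, 85, 87 and 205 bases before the start. A match describes the letters only and does not show binding.
Siglech: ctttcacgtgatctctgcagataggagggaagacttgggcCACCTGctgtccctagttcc
Ccr9: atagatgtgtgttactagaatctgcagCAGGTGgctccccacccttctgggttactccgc
Klk1: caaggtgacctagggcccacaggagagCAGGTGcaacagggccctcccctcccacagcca
Bst2: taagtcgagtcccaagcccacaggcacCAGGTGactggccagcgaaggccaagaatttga

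Beyond the markers, 216 of 5471 compared genes (3.95%) were at least 2 log2 units higher in pDCs than in the other kept cells of the same library in all 3 libraries, and 34 (0.621%) were as much lower. Genes were compared when they had at least 60 UMIs over the pDCs of the 3 libraries and at least 30 CPM in 1 of them. The 25 leading genes, ranked by the smallest of the 3 ratios, were Klk1, Cox6a2, Klk1b27, Ccr9, Sh3bgr, Pacsin1, Cadm1, Gm21762, Havcr1, Upb1, P2ry14, Ddr1, Lifr, Atp2a1, Pdzd4, Cd7, Hs3st1, Runx2, Slc41a2, Tmem221, Bst2, Pltp, Ctsl, Kmo and Carmil1. They joined surface receptors (Havcr1, P2ry14, Lifr, Ddr1 and Cd7), an adhesion molecule (Cadm1), a lysosomal protease (Ctsl), enzymes of pyrimidine and tryptophan breakdown (Upb1 and Kmo) and genes named for muscle, such as the calcium pump Atp2a1 and the cytochrome oxidase subunit Cox6a2. Cox6a2 was measured at 1669, 880.9 and 755.8 CPM, against 8.20, 4.90 and 2.19 CPM in the other cells. Klk1 and Klk1b27 belong to a cluster of very similar kallikrein genes, so their separate counts are uncertain.

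The share of pDCs among kept BM cells was 2.00% for naive BM (142 of 7104, 1.69% to 2.35%), 3.38% for D2 CTX BM (207 of 6126, 2.94% to 3.86%) and 1.65% for D7 CTX BM (137 of 8290, 1.39% to 1.95%). The share was highest in D2 CTX BM, by 0.76 log2 units over naive (0.44 to 1.08), beyond counting error. D7 CTX and naive BM differed by -0.27 log2 units (-0.62 to 0.07), and this interval holds 0. This reading depends on depth. With cells thinned at random to 2000 UMIs, a setting given further below, the D7 CTX share lay below the naive share without overlap of their intervals. Cells with 2 or more Cd79a UMIs made up a much smaller part of D7 CTX BM than of the other libraries, with 203 B lineage cells (at least 3 Cd79a UMIs and no Siglech) against 1937 in naive and 1588 in D2 CTX BM. Among cells with at most 1 Cd79a UMI, pDCs were 2.82%, 4.73% and 1.70%, and D7 CTX lay 0.73 log2 units below naive BM (-1.08 to -0.38). Neutrophils moved the other way, with 6765 of the D7 CTX cells against 3256 in naive and 2640 in D2 CTX BM (no Siglech and at least 50 UMIs each of S100a8 and S100a9). Among cells outside these 2 S100 limits, pDCs were 3.595% (138 of 3839), 5.33% (184 of 3453) and 7.61% (113 of 1485), and D7 CTX lay 1.08 log2 units above naive BM (0.71 to 1.45). With B lineage cells left out as well they were 7.32%, 9.99% and 8.84%, and D7 CTX differed from naive BM by 0.27 (-0.10 to 0.64). D7 CTX BM thus held the lowest share with the first and second denominators and the highest with the third, while D2 CTX lay above naive BM with all 4 denominators. The last 2 denominators were chosen after the data were seen. The library, the pool of mice and the condition cannot be told apart, and a share says nothing of the number of pDCs in the marrow.

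**Figure D2:**
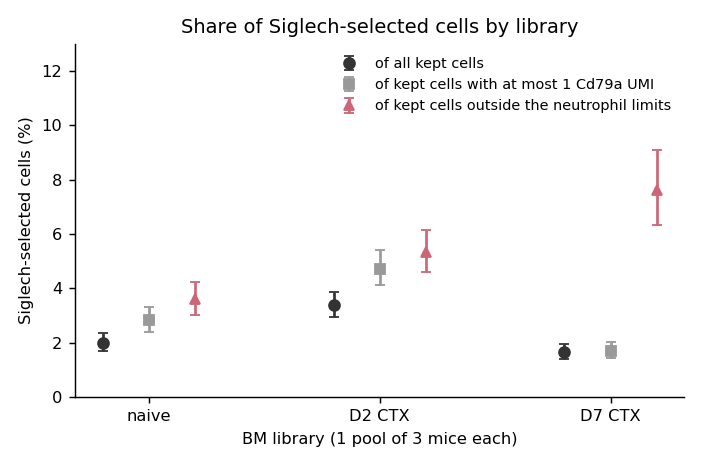
Share of Siglech-selected cells (%) in the naive, D2 CTX and D7 CTX libraries, each 1 pool of 3 mice, of all kept cells (circles), of kept cells with at most 1 Cd79a UMI (squares) and of kept cells outside the neutrophil limits (triangles). Bars are exact 95% binomial intervals and cover counting error only; D2 CTX lies highest with the first and second denominators and D7 CTX with the third.

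The pDCs were not uniform in depth or in RNA of other cells. Their median depth was 5979, 6212 and 6503 UMIs, with highest values of 22519, 60419 and 31626 UMIs. D2 CTX BM held 13 pDCs above 20000 UMIs against 2 in each of the others, and these 13 gave 26.6% of all D2 CTX pDC UMIs. They carried a median of 5 of the 9 markers against 7 in the other D2 CTX pDCs. Their level of Ccr9 was 50.8 CPM against 904.5, and that of the proliferation marker Mki67 1030 against 97.5. Klk1 stood at 8.84 CPM in them against 1044. Siglech, which chose the cells, stood at 501.7 against 3327 CPM, with a median of 15 UMIs in them and of 21 in the others. Irf8 stood at 1799 CPM in them against 3644 and the progenitor gene Cd34 at 81.8 against 11.2, while Ly6d differed less, at 532.6 against 713.6. These 13 cells met the rule and stayed among the pDCs, although their levels make that name less sure for them. Their part in the comparisons is given below.

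Neutrophil RNA moved with the condition. All 10 neutrophil markers were detected in the pDCs of each library, with a summed level of 13774, 32019 and 90967 CPM, led by S100a8 or S100a9. Much of it sat in a minority of cells, since 4 naive (2.82%), 23 D2 CTX (11.1%) and 24 D7 CTX pDCs (17.5%) also met the neutrophil limits for S100a8 and S100a9. In them 15.9%, 16.8% and 29.2% of UMIs (medians) came from 7 neutrophil genes, against 0.111%, 0.262% and 0.258% in the remaining pDCs, and both held a median of 7 of the 9 pDC markers. The median depth was 8180, 9170 and 14093 UMIs in them and 5956, 5984 and 6228 UMIs in the rest. Across the whole BM 46.0%, 43.6% and 82.1% of kept cells met the same limits. Scrublet, a doublet caller, marked 4 of the 4, 19 of the 23 and 19 of the 24 cells, but only 1 of the 13 deep D2 CTX cells. Comparisons below were repeated with both kinds of cells left out, the cells above 20000 UMIs and the cells that met the neutrophil limits, a choice made after the data were seen.

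**Figure D3:**
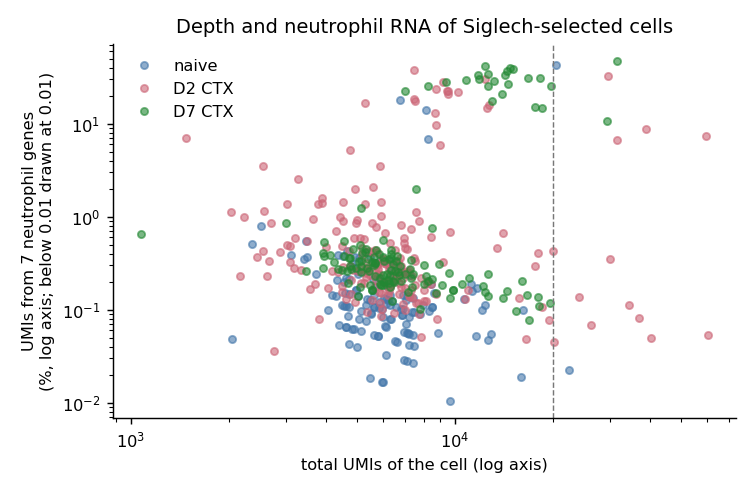
Total UMIs (x, log axis) and share of UMIs from 7 neutrophil genes (y, %, log axis, values below 0.01 drawn at 0.01) of each Siglech-selected cell of naive, D2 CTX and D7 CTX BM. The dashed line stands at 20000 UMIs, and a cloud of mostly D2 CTX and D7 CTX cells lies above 5% neutrophil RNA.

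Other cell types left smaller traces. Hemoglobin and other erythroid transcripts summed to 7185, 657.9 and 12.8 CPM, with Hbb-bs the most abundant and 7, 6 and 4 of 7 genes detected. A single naive cell held 93.3% of the naive Hbb-bs UMIs. B lineage markers summed to 3936, 1445 and 1126 CPM, led by Igkc in naive and by Ighm in treated BM, with Ms4a1 at 0 in all 3 libraries. Macrophage markers stayed at or below 61.6 CPM, T cell markers at or below 52.7 CPM and basophil markers at or below 3.21 CPM. Monocyte markers summed to 1626, 1745 and 4809 CPM, led by Ly6c2, which pDCs carry themselves, and on D7 by Lyz2. NK cell markers summed to 157.1, 153.8 and 153.9 CPM, led by Klrd1 at 149.6, 123.2 and 128.4 CPM, with Ncr1 and Eomes at 0. Plasma cell markers summed to 611.2, 505.3 and 407.2 CPM, led by Mzb1, a chaperone that pDCs share, and early progenitor markers to 147.4, 220.1 and 172.6 CPM, led by Flt3. Conventional dendritic cell markers summed to 278.9 CPM in naive and 287.6 CPM in D2 CTX pDCs, with Xcr1 at 0 in both, against 19.5 and 16.9 CPM in the other cells. In D7 CTX pDCs all 7 of them were detected, Xcr1 included, led by Clec10a at 86.7 CPM. The part of these cell types in the comparisons below was not tested.

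Comparisons between libraries used ratios of CPM with 1 CPM added, and a gene was counted when it differed by at least 1 log2 unit. The intervals come from the counts without the added CPM, and a ratio of scarce UMIs can lie outside its own. The median of all 5471 genes was 0.05 for D2 CTX over naive, -0.14 for D7 CTX over naive and -0.15 for D7 CTX over D2 CTX. In all other kept cells the same genes had medians of 0.15, -0.59 and -0.71, and each list median is read against that of all genes in the same cells. The other kept cells are a mix that held fewer B lineage cells and more neutrophils on D7. Their medians need not show a change within a cell type. For some lists monocytes are given too, cells with at least 2 Csf1r and 3 Ly6c2 UMIs, at most 1 of Cd79a and no Siglech. Medians of all genes are not given for monocytes or B lineage cells. The 3 comparisons share libraries, so their values are set side by side and not correlated. As the summed UMIs weight deep cells more, fewer cells with a transcript and less of it per cell cannot be told apart in a sum.

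On D2, most measured p53 targets were higher in pDCs. These genes are switched on by the tumor suppressor p53 after DNA damage and arrest the cell cycle, repair DNA or start apoptosis. Against naive, 11 of 15 measured p53 targets were at least 1 log2 unit higher in D2 CTX pDCs and 0 were lower, with a list median of 1.49. Over all genes 246 of 5471 (4.5%) were higher and 57 (1.04%) lower. The 11 were the cell cycle inhibitor Cdkn1a, Ccng1, Phlda3, Zmat3, Trp53inp1, Sesn2, the nuclease Aen, the repair factor Xpc and the apoptosis genes Bax, Bbc3 and Pmaip1. Of these 11, 7 reached 30 CPM in D2 CTX pDCs alone (Cdkn1a, Phlda3, Zmat3, Sesn2, Aen, Bbc3 and Pmaip1), so that they were measured only through the library in which they are high. The same held for 98 of the 246 genes (39.8%). With no filter beyond 1 UMI, 18 of 26 p53 targets were higher and 0 lower, with a median of 1.48 beside 0.10 over all genes. In other kept cells of the same libraries the list median was 1.44.

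Cdkn1a, which encodes p21, stood at 13.9, 176.1 and 16.2 CPM. It was 3.57 log2 units higher on D2 than in naive (2.87 to 4.59) and differed from naive by 0.20 on D7 (-0.88 to 1.36). Ccng1 stood at 41.7, 240.6 and 38.3 CPM, a D2 ratio of 2.50 (2.05 to 3.04). Phlda3, an inhibitor of Akt signaling, stood at 3.21, 66.3 and 2.55 CPM, with a D2 ratio between 2.79 and 6.67. All 3 were high on D2 only. Bbc3 and Pmaip1, the BH3-only proteins Puma and Noxa, stood at 7.48, 37.6 and 21.3 CPM and at 11.8, 51.1 and 27.2 CPM, and were still at least 1 log2 unit above naive on D7, by 1.39 (0.26 to 2.96) and 1.15 (0.18 to 2.35). Xpc was higher on both days as well, with 20.3, 48.7 and 62.9 CPM.

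The D2 difference in p53 targets was larger in pDCs with transcripts of mitosis. To compare cells at equal depth, each was thinned at random to 2000 UMIs, and a pDC with at least 2 UMIs of 26 mitosis genes was called mitosis-high. At this depth the 15 p53 targets summed to 3206 CPM (2794 to 3661) in the 34 mitosis-high D2 CTX pDCs and to 1140 CPM (1030 to 1258) in the other 172. In naive BM the sums were 809.5 CPM (560.6 to 1131) and 958.7 CPM (839.3 to 1090), and in D7 CTX BM 1033 CPM (792.3 to 1325) and 1075 CPM (940.4 to 1225). Mitosis-high pDCs stood apart in D2 CTX BM, while the intervals of both classes overlapped in the other libraries. Of the 15 targets, 7 were measured only through D2 CTX pDCs, and fewer were measured without the mitosis-high cells. The choice of genes thus partly sets the D2 CTX contrast of the sums. Without the pDCs above 20000 UMIs, the 22 remaining mitosis-high D2 CTX cells still held 2682 CPM (2220 to 3212). Of the thinned D2 CTX cells, Cdkn1a was found in 12 of 34 mitosis-high cells, with 21 UMIs, and in 4 of 172 others, with 4 UMIs, a log2 ratio of 4.73 (3.16 to 6.73). Ccng1 and Bax differed in the same direction, by 2.74 (1.89 to 3.61) and 1.94 (1.13 to 2.73), while Btg2, an early response gene that p53 also drives, stood at 205.9 and 319.8 CPM (-1.55 to 0.17 in log2).

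**Figure D4:**
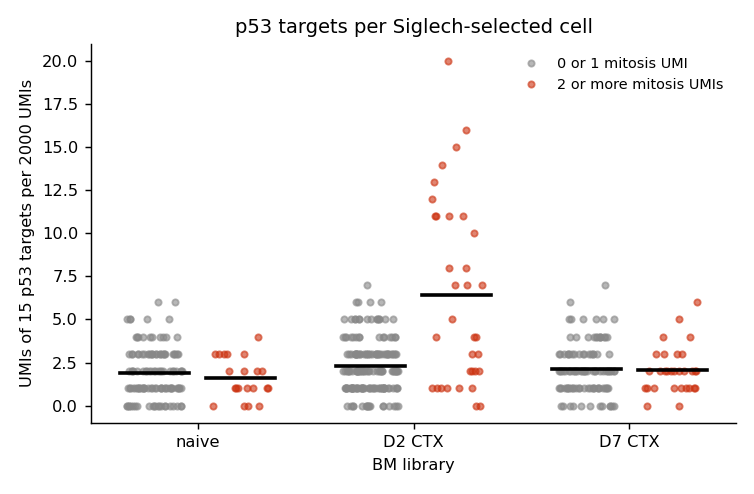
UMIs of 15 p53 targets in each Siglech-selected cell after thinning to 2000 UMIs, in naive, D2 CTX and D7 CTX BM, with cells of 0 or 1 mitosis UMI in gray and of 2 or more in red. Black bars are means over cells; the red cells of D2 CTX BM reach 20 UMIs, and no other group passes 7.

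The deep cells carried a large part of this difference. All 13 D2 CTX pDCs above 20000 UMIs held Cdkn1a, with 202 of its 300 UMIs, against 19 of the other 194 cells. With these cells and the cells that met the neutrophil limits left out, Cdkn1a was still 2.71 log2 units above naive and Ccng1 1.75, but only 4 of 11 measured p53 targets were at least 1 log2 unit higher, with a list median of 0.89. With the mitosis-high pDCs left out, 1 of 8 was, with a list median of 0.31, and the Cdkn1a ratio was 0.79. With the mean of the cells' CPM in place of the sum, which weights all cells alike, 5 of 12 were higher, with a median of 0.94. The BCL2 family, regulators of apoptosis, had 4 of 9 measured genes higher on D2 (Bax, Bcl2l11, Bbc3 and Pmaip1) and 0 lower, against 4.5% higher among all genes. Of the 4, 3 are also p53 targets, and all but Bax reached 30 CPM in D2 CTX pDCs alone. With both kinds of cells left out 2 of 8 measured genes of the family were higher, and without the mitosis-high pDCs 1 of 7, with a median of -0.29.

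A few interferon-stimulated genes were higher on D2 than in naive, and more were lower on D7 than on D2. Of 16 measured, 15 had a ratio above 0 on D2 and 4 were at least 1 log2 unit higher (Isg15, Ifi44, Ifi209 and Ifitm3), with 0 lower, where 4.5% of all genes were higher and 1.04% lower. The list median was 0.58 against 0.95 in other kept cells, and Isg15 was measured only through D2 CTX pDCs. Monocytes had a D2 list median of -0.36 and B lineage cells of 1.24. Isg15, a ubiquitin-like modifier, stood at 26.7, 61.0 and 18.7 CPM, a D2 ratio of 1.16 (0.55 to 1.88). Ifi44 stood at 81.2, 210.1 and 58.7 CPM, a D2 ratio of 1.36 (1.01 to 1.75), and had UMIs in 25 of 142, 118 of 207 and 25 of 137 cells. Neutrophils held 2.74, 7.35 and 0.62 CPM of Ifi44, far less than pDCs. Its neighbor Ifi44l, not on the list, stood at 42.7, 121.5 and 15.3 CPM, with UMIs in 25, 112 and 13 cells. Ifitm3, which blocks viral entry, differed from the rest, with 25.6, 195.4 and 293.3 CPM in pDCs beside 735.0, 1072 and 853.3 CPM in neutrophils. With both kinds of cells left out, 7 of 17 were higher on D2, with a list median of 0.78 beside 0.05 over all genes. Unlike the p53 targets, the 16 genes were no higher in mitosis-high D2 CTX pDCs, at 3309 CPM (2891 to 3771) after thinning, than in the others, at 4015 CPM (3806 to 4232).

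Between D2 and D7 the same list had 7 genes lower and 0 higher, with a median of -0.92 and background shares of 5.59% lower and 1.81% higher among all 5471 genes (99 higher and 306 lower). With the libraries scaled by the median of gene ratios, the count of genes higher at D7 CTX than D2 CTX in pDCs was 140 and of genes lower at D7 CTX than D2 CTX in pDCs 192, and 6 of the list were lower. The 7 genes included Isg15, Ifi27l2a, Ifi44, Ifi203, Ifi204 and Trim30a. Ifi27l2a stood at 774.6, 1159 and 314.6 CPM, and was 1.30 log2 units lower on D7 than in naive. From D2 to D7 the list median of other kept cells was -1.47, beside -0.71 over all genes in those cells and -0.15 in pDCs. The list median was -0.06 in monocytes and -2.17 in B lineage cells. Ifi203, Ifi204 and Ifi209 come from a cluster of similar genes, and their separate counts are uncertain.

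The interferon-stimulated response element (ISRE), a promoter motif of many interferon-induced genes, was searched for as GAAANNGAA on both strands in the same promoter windows. It was present in 8 of the 12 measured interferon-stimulated genes with a promoter in RefSeq (66.7%), and in 9.76% of all genes with one. The stretches below, on the gene's strand in GRCm38.p6 with overlapping matches in capitals, are shown for genes that were lower on D7 than on D2 and for the marker Bst2. They lie at chr4:156200862-156200921 (minus strand) for Isg15, chr1:173942493-173942552 (minus strand) for Ifi203, chr3:151762892-151762951 (minus strand) for Ifi44l and chr8:71537568-71537627 (minus strand) for Bst2. The first matches began 78, 35, 13 and 130 bases before the start, and in Ifi44l the letters are those of the opposite strand. Ifi203 has another promoter in the table, which held no match.
Isg15: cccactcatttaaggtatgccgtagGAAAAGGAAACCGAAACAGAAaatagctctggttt
Ifi203: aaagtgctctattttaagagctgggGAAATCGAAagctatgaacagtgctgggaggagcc
Ifi44l: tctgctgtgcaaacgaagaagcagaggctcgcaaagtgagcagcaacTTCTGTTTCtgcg
Bst2: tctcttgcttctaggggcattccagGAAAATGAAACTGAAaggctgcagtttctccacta

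The interferons themselves were not detected. Of 32 interferon and cytokine ligand genes, 21 had no UMI in any of the 486 pDCs, among them every listed interferon alpha gene, Ifnb1, Ifnl2, Ifnl3, Il6, Il10 and Il12b. The limit taken for a count of 0 was 3 UMIs, worth 3.21, 1.76 and 2.55 CPM at this depth, and it is not an exact interval. Of 4 measured ligands, the chemokine Ccl4 (42.7, 163.7 and 81.6 CPM), the interleukin-12 subunit Il12a (24.6, 53.4 and 45.1 CPM) and Il1b (3.21, 44.6 and 5.10 CPM) were at least 1 log2 unit higher on D2 than in naive. Of all compared genes, 4.5% were higher on D2. Il1b reached 30 CPM in D2 CTX pDCs alone. With no filter beyond 1 UMI 6 of 11 ligands were higher and 1 lower, with a median of 1.09 beside 0.10 over all genes. The counts over all genes at that setting are given further below. Il1b stood at 107.8, 270.5 and 57.8 CPM in neutrophils, far above its level in pDCs, whereas Ccl4 stood there at 13.7, 33.8 and 3.61 CPM. The pDCs thus held transcripts of a few cytokines but none of interferon alpha or beta.

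Among the D2 differences with the highest ratios, several came from few cells. Pf4, platelet factor 4, stood at 3.21, 279.4 and 0.85 CPM, and 97.9% of its D2 CTX UMIs lay in 1 cell. Hebp2 (0, 42.8 and 1.70 CPM), Serpine2 (2.14, 51.1 and 0 CPM) and Cox6b2 (6.41, 215 and 20.4 CPM) were high on D2 alone, and without the mitosis-high cells Serpine2 and Hebp2 were not. Stfa2l1, Olfm4, Mrgpra2b, Lrg1 and Adam8, known from neutrophils, were higher too, and Olfm4 lost its difference (-0.03) once the cells that met the neutrophil limits were left out. Fgd4, a regulator of the actin cytoskeleton, was 3.53 log2 units higher. Gstp1, a glutathione transferase that detoxifies alkylating agents, stood at 3.21, 34.0 and 0.85 CPM, from 3, 58 and 1 UMIs, with UMIs in 3 of 142, 51 of 207 and 1 of 137 cells. Leaving out both kinds of cells, Gstp1 was still 3.55 log2 units above naive on D2. It reached 30 CPM in D2 CTX pDCs alone. The other kept cells had the same order, with 3.83, 26.7 and 1.65 CPM. Gm10076, a gene model, stood at 60.9, 632.1 and 66.3 CPM, with UMIs in 49, 198 and 52 cells, but the other kept cells moved alike, with 66.1, 601.7 and 48.2 CPM.

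Genes that were lower on D2 were led by proteases of myeloid granules, Ctsg, Elane and Prtn3, described below. Rnaset2a, a lysosomal ribonuclease with a near-identical copy, so that its count is uncertain, stood at 141.0, 38.1 and 131.8 CPM, and at 51.6, 12.5 and 52.8 CPM in other kept cells. Id3, an inhibitor of E proteins, stood at 95.1, 35.2 and 74.8 CPM, and was the only one of 19 measured pDC transcription factors that differed by 1 log2 unit on D2. It was 1.41 log2 units lower than in naive (-1.93 to -0.94). Mfng, a glycosyltransferase that tunes Notch, had a ratio of -1.42 (-2.39 to -0.64) and Dgcr6 of -1.45 (-2.09 to -0.89). Car2, carbonic anhydrase of red cells, was lower as well (-1.79), but 1 naive cell held 68% of its naive UMIs.

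**Figure D5:**
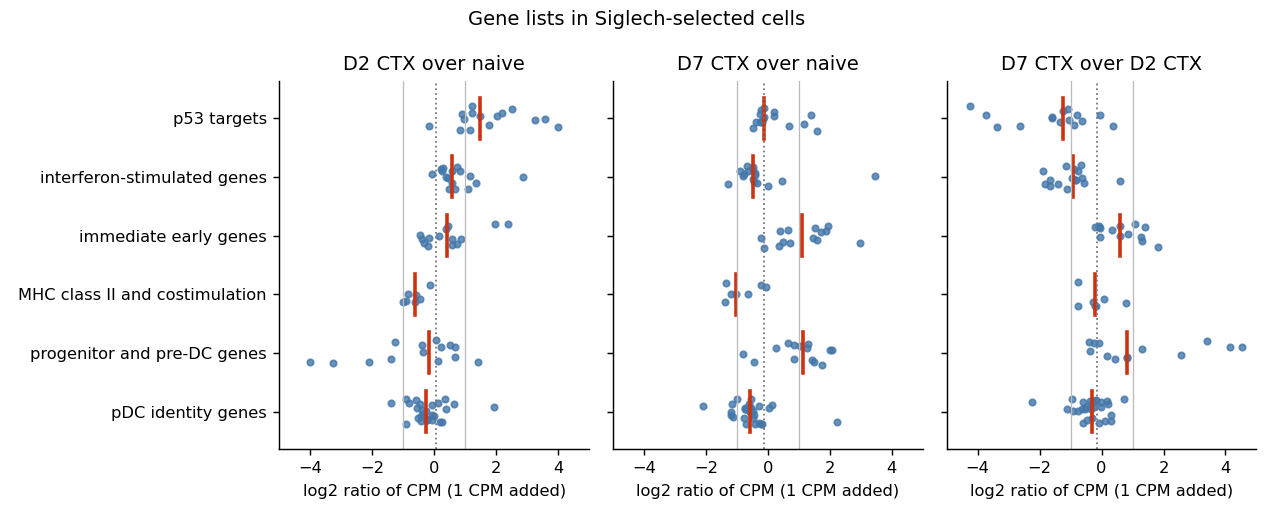
Log2 ratio of CPM (1 CPM added) of each measured gene (blue points) of 6 lists in Siglech-selected cells, for D2 CTX over naive, D7 CTX over naive and D7 CTX over D2 CTX, with list medians in red. Dotted lines are medians of all compared genes and gray lines stand at -1 and 1; p53 targets lie highest on D2 and early genes and progenitor genes on D7.

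On D7 part of the immediate early genes, which encode transcription factors and phosphatases that cells switch on within minutes of a stimulus or of handling, were higher. Against naive, 7 of 14 measured were at least 1 log2 unit higher and 0 lower (Fos, Fosb, Jun, Egr1, Ier2, Dusp1 and Klf6), with a list median of 1.09. Over all genes 195 of 5471 (3.56%) were higher and 112 (2.05%) lower. With the libraries scaled by the median of gene ratios, the count of genes higher at D7 CTX than naive in pDCs was 234 and of genes lower at D7 CTX than naive in pDCs 69, and the same number of early genes was higher. Fos stood at 153.9, 208.3 and 507.6 CPM, with UMIs in 68 of 142, 122 of 207 and 103 of 137 cells, a D7 ratio of 1.72 (1.46 to 1.99). Jun stood at 210.5, 169.0 and 605.3 CPM, a D7 ratio of 1.52 (1.29 to 1.76). Jun had UMIs in 75 of 142, 93 of 207 and 116 of 137 cells, so that both partners of the AP-1 factor were detected in a larger part of D7 CTX pDCs. Fosb stood at 56.6, 83.9 and 221.1 CPM, and Dusp1, a phosphatase of MAP kinases, at 16.03, 87.5 and 133.5 CPM. On D2 Egr1 and Dusp1 alone of the list were at least 1 log2 unit higher.

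In all other kept cells the D7 median of the list over naive was -0.09, where that of all genes was -0.59. In pDCs these medians were 1.09 and -0.14. The D7 list median over naive was 0.59 in monocytes and -0.09 in B lineage cells. From D2 to D7 it was 0.60 in pDCs, 0.96 in monocytes and -0.58 in B lineage cells. Neutrophils held 290.3, 491.5 and 131.1 CPM of Fos, in an order other than that of pDCs. Without the pDCs above 20000 UMIs and those that met the neutrophil limits, 7 of 13 immediate early genes were at least 1 log2 unit higher on D7, with a list median of 1.24. Among pDCs with at least 2 of Ccr9, Bst2 and Klk1 detected the median was 0.59, with 6 of 13 higher and 1 lower than in naive, and 1 higher and 1 lower than on D2. Cells outside the mitosis-high class showed the difference at equal depth, with 2326, 2619 and 3792 CPM. Handling time is not given in the labels, and its part in this difference was not tested.

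Several genes of MHC class II, which present peptides to CD4 T cells, were lower on D7. Against naive, 4 of 7 measured genes of the list were at least 1 log2 unit lower and 0 higher, with a median of -1.04. Of all genes, 2.05% were lower. With no filter beyond 1 UMI, 4 of 15 genes of the list were lower and 4 higher. The median was then -0.07, beside -0.03 over all genes. H2-Aa stood at 760.8, 419.6 and 369.0 CPM, H2-Ab1 at 509.7, 335.7 and 198.9 CPM, and H2-Eb1 at 266.0, 141.4 and 115.6 CPM. Cd74, the invariant chain, stood at 1726, 1129 and 659.8 CPM, a D7 ratio of -1.39 (-1.51 to -1.26). All 4 ran down from naive to D2 to D7. H2-DMa, which loads peptides onto class II, did not follow them, with 315.2, 286.4 and 300.1 CPM. Class II transcripts were present in part of the pDCs only, with Cd74 in 77 of 142, 124 of 207 and 51 of 137 cells. Other kept cells had a D7 list median of -1.89 beside -0.59 over all their genes. Scaling pDCs by the median of gene ratios gave -0.90 with 3 lower. Without the deep cells and those that met the neutrophil limits the median was -0.88 and 3 of 7 were lower. None of the 14 measured genes of MHC class I presentation differed by 1 log2 unit from naive on either day.

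A few identity genes were lower on D7. Of 28 measured pDC identity genes, 5 were at least 1 log2 unit lower than in naive (Klk1, Cox6a2, Ly6d, Sla2 and Ly6a) and 1 higher (Dntt), with a median of -0.59, against 2.05% lower and 3.56% higher among all genes. With the mean of the cells' CPM in place of the sum 1 was lower, with a median of -0.35. Klk1 had a D7 ratio of -1.18 (-1.35 to -1.02) and Cox6a2 of -1.14 (-1.26 to -1.02). Ccr9 had a ratio of -0.71 (-0.88 to -0.54) and Bst2 of -0.75 (-0.84 to -0.67). Of the 28 genes, 3 had a ratio above 0. With both kinds of cells left out, the list median was -0.34, with 2 lower and 1 higher, and the median of all genes moved from -0.14 to -0.01. Of the 216 genes that stood out in pDCs over other cells, 26 were lower on D7 than in naive and 0 higher, with a median of -0.54, against 6 lower and 4 higher on D2, with a median of -0.06. Those genes were chosen for being high in pDCs of all 3 libraries, so their counts are a description.

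Ly6a, the stem cell antigen Sca-1 that interferon induces, had a D7 ratio of -2.09 (-3.39 to -1.18), but its UMIs lay in 7 of 142, 27 of 207 and 4 of 137 cells, and 43% of the naive UMIs in 1 cell. Cd200, a ligand that restrains myeloid cells, stood at 129.3, 71.0 and 40.0 CPM, a D7 ratio of -1.67 (-2.21 to -1.20). Gapt, an adaptor of B cells and their precursors, stood at 132.5, 117.4 and 45.9 CPM, a D7 ratio of -1.51 (-2.02 to -1.06). Both Cd200 and Gapt were low in D7 CTX pDCs beyond counting error. Cd7, a surface antigen of pDCs and T cells, ran differently, with 599.4, 317.5 and 526.3 CPM, and was lowest on D2.

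Of the transcription factors, Tcf4 stood at 2731, 3142 and 1976 CPM, Irf8 at 4079, 3154 and 3009 CPM, and Runx2 at 1129, 1195 and 781.3 CPM. None of the 3 differed from naive by 1 log2 unit on either day. Irf7, the factor that drives interferon alpha genes, stood at 102.6, 132.0 and 46.8 CPM, a D7 ratio of -1.12 (-1.64 to -0.64). Spi1, which encodes PU.1 of the myeloid lineage, stood at 76.9, 105.1 and 183.6 CPM beside 319.5, 365.4 and 339.3 CPM in neutrophils. Klf4, a factor of monocytes, stood at 41.7, 66.3 and 118.2 CPM. Spi1 and Klf4 were the factors higher on D7 and Irf7 the one lower, of 19 measured, against 3.56% higher and 2.05% lower among all genes, with a list median of -0.36. Leaving out both kinds of cells, Klf4 had a D7 ratio of 1.58, Spi1 of 0.98 and Irf7 of -0.91.

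The sensing pathway of pDCs was close to the naive level. Of 20 measured genes of the nucleic acid sensing pathway, Tlr7 and Irf7 were lower on D7 (2.05% of all genes) and none higher, with a median of -0.20, and none differed by 1 log2 unit on D2. Tlr7, the receptor of single-stranded RNA, stood at 71.6, 88.6 and 30.6 CPM, a D7 ratio of -1.20 (-1.85 to -0.62), and had UMIs in 47 of 142, 103 of 207 and 30 of 137 cells. Tlr9, the receptor of CpG DNA, had at most 4 UMIs in a library, too few to compare. Unc93b1, which brings both receptors to endosomes, differed from naive by -0.20 on D2 and -0.04 on D7, and the exonuclease Pld4 stood at 578.0, 548.1 and 422.5 CPM. Of 15 measured inhibitory and activating receptors, Pilra was higher on both days and Cd200 lower on D7, where 4.5% of all genes were higher on D2 and 3.56% on D7. Without the cells that met the neutrophil limits, 0 of 14 were higher on either day, and Cd200 had a D7 ratio of -1.32. None of 23 measured genes of the secretory pathway and unfolded protein response, which serves secretion, differed by 1 log2 unit from naive.

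Some genes of progenitors were lower on D2 and higher on D7. Of 14 measured progenitor and pre-DC genes, 5 were lower on D2 (Mpo, Ctsg, Prtn3, Elane and Cd8a) and 1 higher (Cx3cr1), with 7 ratios above 0 and a median of -0.16, where 1.04% of all genes were lower and 4.5% higher. On D7 8 were higher than in naive (Csf1r, Mpo, Ctsg, Prtn3, Elane, Cd8a, Cx3cr1 and Klf4) and 0 lower, with a median of 1.15. Over all genes 3.56% were higher on D7. Csf1r, Ctsg and Cd8a reached 30 CPM in D7 CTX pDCs alone. With no filter beyond 1 UMI 9 of 19 were higher and 1 lower, with a median of 0.86 beside -0.03 over all genes. Against D2, 6 were higher on D7, beside 1.81% of all genes. Among pDCs with at least 2 of Ccr9, Bst2 and Klk1 detected 5 of 12 were higher on D7 than in naive, with a median of 0.80. Elane, Prtn3 and Ctsg encode serine proteases of primary granules and Mpo their peroxidase. Elane stood at 59.8, 5.28 and 144.5 CPM, with UMIs in 35, 9 and 48 cells. Prtn3 stood at 85.5, 19.4 and 359.6 CPM, Ctsg at 24.6, 0.587 (1 UMI) and 84.2 CPM, and Mpo at 82.3, 34.0 and 204.9 CPM.

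These 4 genes are abundant in neutrophils and their precursors, which held 1311, 445.6 and 1081 CPM of Elane, 1135, 474.1 and 1243 of Prtn3, 164.1, 113.2 and 204.3 of Ctsg and 364.0, 358.4 and 359.0 of Mpo. Single cells weighed heavily on D7, with 41.8% of Elane, 31.0% of Prtn3, 31.3% of Ctsg and 32.0% of Mpo UMIs in 1 pDC each. Without the deep cells and those that met the neutrophil limits, Mpo still had ratios of -1.36 on D2 and 1.10 on D7. Elane, Prtn3 and Ctsg were lower on D2 in neutrophils as well, but Mpo was not. Whether such UMIs come from pDCs or from RNA of other cells was not tested.

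Cd8a, whose product some dendritic cells carry as a homodimer, was also lowest on D2 and highest on D7. It stood at 13.9, 4.70 and 58.7 CPM in pDCs, with UMIs in 8 of 142, 7 of 207 and 28 of 137 cells, and at 0.376, 0.893 and 0.0547 CPM in neutrophils. D7 CTX pDCs were 2.00 log2 units above naive (1.21 to 3.06), and 2.43 without the deep cells and those that met the neutrophil limits. After thinning, none of the 27 Cd8a UMIs on D7 lay in the 30 mitosis-high cells. T cell markers summed to 18.2, 41.1 and 52.7 CPM, led by Cd3d on D7, with Cd3e, Trac and Trbc2 at 0 there, and their part in the Cd8a difference was not tested. Csf1r, the receptor of macrophage colony-stimulating factor, stood at 11.8, 12.9 and 33.2 CPM, with UMIs in 5, 13 and 22 cells. Dntt, the terminal transferase of lymphoid precursors, stood at 23.5, 93.3 and 114.8 CPM, and was higher than naive on both days, by 1.94 (1.34 to 2.70) and 2.24 (1.63 to 3.01). Rgs1, a brake on chemokine receptor signaling, stood at 40.6, 17.6 and 91.8 CPM, the same order as Cd8a.

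The highest D7 ratios were otherwise those of neutrophil genes. Of the 12 highest, Stfa2l1, Asprv1, Stfa3, BC100530, Stfa2, Mrgpra2b, Lrg1, Ifitm6, Adam8, Ceacam10, Mapk13 and Lyz2, several lost their difference without the cells that met the neutrophil limits, with Stfa2 at 0.44, Lrg1 at 0.07 and Ceacam10 and Mrgpra2b at 0. Mapk13, with 1 naive UMI over all pDCs, turned to -1.08, a ratio that depends on the 1 CPM added. Lyz2, the lysozyme of myeloid cells, kept a ratio of 3.79, from 232.9, 516.5 and 3412 CPM over all pDCs, beside 8676, 5975 and 13543 CPM in neutrophils. Without those cells 128 genes were higher and 72 lower on D7 than in naive.

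Of 17 measured cytokine receptors, Csf2ra and Csf3r were higher on D2 and D7, and Csf1r on D7, with 0 lower, where 4.5% and 3.56% of all genes were higher. Csf3r reached 30 CPM in D2 CTX pDCs alone and Csf1r and Csf2ra in D7 CTX pDCs alone, so that their measurement rests on the library in which they are high. Without the cells that met the neutrophil limits 14 receptors were still measured, of which 0 were higher on D2 or D7, while Csf1r, no longer among them, had a D7 ratio of 1.49. Csf3r, the receptor of granulocyte colony-stimulating factor, stood at 7.48, 48.1 and 28.1 CPM beside 181.1, 396.7 and 125.1 CPM in neutrophils. Flt3, whose ligand drives dendritic cell formation, stood at 113.3, 161.4 and 135.2 CPM. Of 18 measured homing and retention genes, Cx3cr1 and Cd9 were higher on both days. With both kinds of cells left out, 0 of 17 were higher on D2 and 1 of 17 on D7, and Cx3cr1 had ratios of -0.22 and 1.35. Cxcr4, which holds cells in the BM, stood at 62.0, 73.4 and 89.3 CPM. None of 9 measured conventional DC genes differed by 1 log2 unit in any comparison.

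The share of mitosis-high pDCs overlapped between libraries within counting error. It was 14.8% in naive (21 of 142, 9.39% to 21.7%), 16.5% in D2 CTX (34 of 206, 11.7% to 22.3%) and 22.1% in D7 CTX BM (30 of 136, 15.41% to 29.97%), and 35.9%, 30.4% and 43.8% without thinning. In the same libraries B lineage cells had 46.7%, 12.4% and 62.4% and neutrophils 25.1%, 20.4% and 30.5% after thinning. The order of the pDC shares depended on the depth and on the UMI limit. Naive was lowest at 2000 UMIs with at least 2, over all pDCs. D2 CTX was lowest without thinning, at 1000 UMIs with at least 1 and at 2000 UMIs with at least 3. The class is a range and not a type: 25, 38 and 31 pDCs had 1 mitosis UMI and 5, 8 and 6 had exactly 2. Mitosis-high pDCs were also deeper before thinning, with medians of 10637, 14912 and 13536 UMIs against 5805, 5934 and 6190. Without the pDCs above 20000 UMIs the shares of mitosis-high pDCs were 13.6%, 11.4% and 20.9%. Of 18 measured S phase genes, 3 were at least 1 log2 unit above naive on D2 and 3 on D7, with 0 lower. Mcm3 and Mcm4 were among them on both days. Of all genes, 4.5% were higher on D2 and 3.56% on D7. The list had medians of 0.51 and 0.61, against -1.01 and -1.41 in other kept cells, a mix that differed between libraries. Monocytes had list medians of 0.58 and -0.38, and B lineage cells of -1.74 and 0.38. Without the pDCs above 20000 UMIs the S phase genes had a median of -0.32 on D2 and 0.81 on D7, and without those that met the neutrophil limits of 0.54 and 0.94. With the cells that Scrublet marked left out, the medians were 1.38 and 1.57, beside 0.06 and -0.02 over all genes. With the mean of the cells' CPM in place of the sum they were -0.07 and 0.66.

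Several pDC markers were lower in mitosis-high pDCs than in the others at equal depth, but not all. Ccr9 stood at 142.9 CPM against 909.1 in the other pDCs of naive BM and at 573.5 against 1061 on D2, and had a D7 ratio of -1.51 (-2.38 to -0.74). Klk1 stood at 166.7 against 1120, 588.2 against 1154 and 183.3 against 632.1 CPM. Cd74 had ratios of -1.35, -1.57 and -2.21. Ccr9, Klk1 and Cd74, like Bst2 and Tcf4, were lower in mitosis-high cells of each library, beyond counting error. Cox6a2 was higher in them in naive BM (0.52, 0.18 to 0.86) and lower on D2 (-0.48, -0.91 to -0.08) and D7 (-1.17, -1.79 to -0.60). Spib was lower in naive BM (-2.02, -4.33 to -0.41), with 0.01 on D2 (-0.66 to 0.62) and -0.83 on D7 (-2.23 to 0.33). The interval of Pacsin1 lay below 0 on D7 alone (-3.81 to -0.44) and that of Klra17 on D2 alone. Ly6d, an antigen of lymphoid-biased progenitors, was higher in them, with 3976 against 929.8 CPM in naive, 1897 against 290.7 on D2 and 1100 against 792.5 on D7. Siglech, which chose the cells, stood at 1333 against 2727, 2426 against 3581 and 850.0 against 2561 CPM. Irf8 differed less, with log2 ratios of 0.11 (-0.13 to 0.34), -0.44 (-0.67 to -0.23) and -0.36 (-0.61 to -0.12).

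Variation among pDCs of a library was led by genes of neutrophils. In each library S100a8 and S100a9 had the largest variance over mean of thinned UMIs, from 114.9 to 203.1, with Camp, Ngp, Retnlg, Lcn2 and Lyz2 also among the 10 most variable genes of each. Outside these, Ly6d, the nuclear RNA Malat1 and Cd74 varied most among naive pDCs, with variance over mean of 13.6, 11.2 and 8.95. Ly6d was found in 38.0%, 25.7% and 36.8% of thinned pDCs, with up to 32 UMIs in a cell. Ly6c2 was found in 73.9%, 78.2% and 56.6%. Kit, the receptor of stem and progenitor cells, was found in 0 of 142, 1 of 206 and 0 of 136 thinned pDCs.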

How the data were processed

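Chromium 3′ V3 libraries of whole BM were analysed, 1 for each condition, and monocytes sorted as CD11b+Ly6Chi served only for a count of cells. The authors deposited raw counts of UMIs per gene and barcode, without normalization. The submitters' processing notes name Cell Ranger 3.1, Seurat 5.0 and mm10, and the annotation release is not given in the sources used here. The libraries held 47086837 (naive), 34764874 (D2 CTX) and 68459527 UMIs (D7 CTX) in 7649, 6608 and 8605 barcodes, and the pDCs 935917, 1703915 and 1176195 UMIs. These depths make 1 UMI worth 1.07, 0.587 and 0.850 CPM.

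Cells were gated on UMIs, since no cell annotation was used, and names may differ from those of the study. UMIs were summed over pDCs and scaled to CPM. Shares have Clopper-Pearson, levels Poisson and ratios conditional 95% intervals, all exact, without p-values. Siglech, Cd79a, immunoglobulin and hemoglobin genes and Xist stayed out of the named genes, which were the 12 highest and 12 lowest ratios of each comparison, the 25 leading genes over other cells, the 10 most variable genes and members of 21 lists. The members, lists and rules were chosen with earlier results of these data known. Some single genes are not reported here. Doublets stayed in, and Scrublet (scanpy 1.11.5) was an alternative, with other cell filters, Siglech and Cd79a limits, thinning, pseudocount, gene filter, scaling, cell weights and totals. Python 3.11.15, numpy 2.4.6, scipy 1.17.1, pandas 2.3.3 and matplotlib 3.10.9 were used. Counting steps were tested on simulated data.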

Additional observations from a re-analysis of the deposited data

Results flagged for a closer look

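Results were picked here when the ratios over naive of D2 CTX and D7 CTX BM pointed in opposite directions. With 1 library for each condition these differences were not tested. The pDC share of kept BM cells lay 0.76 log2 units above naive on D2 and differed by -0.27 on D7, but among cells outside the neutrophil limits it lay 1.08 above naive on D7. Of 5471 compared genes, 13 passed 1 log2 unit above naive on 1 day and below it on the other. Mpo had ratios of -1.25 on D2 and 1.31 on D7, Prtn3 of -2.09 and 2.06, Elane of -3.28 and 1.26, and Ctsg of -4.01 and 1.74. Cd8a had ratios of -1.39 and 2.00, and Rgs1 of -1.16 and 1.16. These 6 genes were low on D2 and high on D7.

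The other 7 genes ran the other way. Among them are 3 genes that interferon is known to induce, Ifi44l with ratios of 1.49 on D2 and -1.42 on D7, Ifi207 of 1.23 and -1.39, and Slfn5 of 1.02 and -1.39. Slfn5 stood at 64.1, 130.9 and 23.8 CPM in naive, D2 CTX and D7 CTX pDCs. Sdc3, a syndecan, had ratios of 1.54 and -1.41, from 10, 56 and 4 UMIs. Gstp1 had ratios of 3.06 and -1.18, Pf4 of 6.06 and -1.18, and Serpine2 of 4.05 and -1.65. For these last 3 the naive and D7 CTX pDCs held at most 3 UMIs each, so their D7 ratios depend on the 1 CPM added.

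In libraries that the comparisons did not use, sorted CD11b+Ly6Chi monocytes, 11 of 2564 kept cells from CTX mice (0.429%, 0.214% to 0.766%) and 1 of 1891 from naive mice (0.0529%, 0.00134% to 0.294%) met the Siglech rule. The 11 cells held a median of 14 Siglech UMIs and 7 of the 9 other pDC markers, with Ccr9 in 9, Bst2 in 11 and Klk1 in 8 of them, and Csf1r in 2.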

How the results depend on the processing

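Of 148 shares and counts recomputed under other settings, 114 moved by less than their interval or by less than 1.5 times. Restricted to cells with at most 1 Cd79a UMI, the pDC share was 2.82% for naive and 4.73% for D2 CTX BM. Another setting thinned cells to 2000 UMIs, lowered the Siglech minimum to 2 and left out cells below 2000 UMIs. The share was then 2.07% for naive (1.72% to 2.46%) and 4.17% for D2 CTX BM (3.61% to 4.79%). It was 1.29% for D7 CTX BM (1.06% to 1.56%), an interval wholly below that of naive BM. With no filter beyond 1 UMI, 14237 genes were compared, and the count of genes higher at D2 CTX than naive in pDCs was 1780, of genes lower at D2 CTX than naive in pDCs 806, of genes higher at D7 CTX than naive in pDCs 1211, of genes lower at D7 CTX than naive in pDCs 1323, of genes higher at D7 CTX than D2 CTX in pDCs 648 and of genes lower at D7 CTX than D2 CTX in pDCs 1546. Scaling by the median of gene ratios left 69 lower on D7 than in naive and 192 lower than on D2, against 112 and 306, and the mean of the cells' CPM gave 90 lower on D2, against 57.

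Alternatives added after seeing the data left out kinds of cells. Among cells outside the neutrophil limits the pDC share was 3.595% for naive, 5.33% for D2 CTX and 7.61% for D7 CTX BM. Without the pDCs that met these limits the D7 CTX share was 1.36% of all kept cells, and 128 genes were higher and 72 lower on D7 than in naive, against 195 and 112. Without the pDCs above 20000 UMIs, 118 were lower on D2 than in naive and 206 higher on D7 than on D2. Without both, 143 were higher and 97 lower on D2 than in naive, 122 higher and 72 lower on D7 than in naive, and 183 higher on D7 than on D2. The direction turned in 4 cases, Mapk13 on D7 over naive (-1.08 without the first kind, -1.10 without both), and, without the mitosis-high cells, Serpine2 on D2 over naive (-1.93) and Hebp2 on D7 over D2 (1.22). Over all pDCs Mapk13 had 1 naive UMI, Serpine2 2 naive UMIs and Hebp2 2 D7 CTX UMIs. These turned ratios thus rest on scarce UMIs and depend on the 1 CPM added.

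Shares of mitosis-high pDCs depended on the depth and on the UMI limit. Thinned to 1000 UMIs with at least 1 mitosis UMI they were 28.9%, 22.7% and 32.9%, and without thinning 35.9%, 30.4% and 43.8%. At 2000 UMIs with at least 3 they were 12.7%, 11.7% and 18.4%. Without the pDCs above 20000 UMIs they were 13.6%, 11.4% and 20.9%. D2 CTX BM was lowest in each of these settings. No paired analysis was possible because each condition is 1 library, and no replicate could be left out for the same reason. Genes near 30 CPM rest on few UMIs, so ratios below about 1 log2 unit could not be told from counting error there.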

Other observations

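Genes named for cyclophosphamide detoxification were measured in 9 of 20 cases. Gstp1 and Mgst1, a microsomal glutathione transferase, were at least 1 log2 unit higher on D2 than in naive, and Mgst1 and Mgst2 on D7. Gstp1 reached 30 CPM in D2 CTX pDCs alone, and its 3 UMIs in naive and 1 in D7 CTX pDCs are too few to compare with each other. Over all genes 4.5% were higher on D2 and 3.56% on D7. Without the cells that met the neutrophil limits 7 of the list were still measured, of which 0 were higher on D2 and 1 on D7, while Gstp1, no longer among them, had a D2 ratio of 3.52. Aldh1a2, Aldh1a3, Aldh3a1 and Gsta4 had no UMI in the pDCs of any library. Of 6 measured Kruppel-like factors, Klf4 and Klf6 were higher on D7. Klf2, which restrains lymphocyte activation and keeps cells quiescent, was found in 37.3%, 35.9% and 49.3% of naive, D2 CTX and D7 CTX pDCs thinned to 2000 UMIs. Cd4 was found in 12.7%, 11.7% and 8.09% and Lag3, an inhibitory receptor, in 5.63%, 8.74% and 6.62% of them.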
